A study of Mus musculus with 6 samples.

Results

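The 9 genes described here encode the subunits of respiratory chain complex III that come from the nucleus: the core proteins Uqcrc1 and Uqcrc2, the redox subunits Uqcrfs1 and Cyc1, and the small accessory subunits Uqcrb, Uqcrh, Uqcrq, Uqcr10 and Uqcr11. They were taken by symbol from the 26191 genes of an RNA sequencing table of embryonic mouse hearts, after the values of each gene's transcripts had been added up. All 9 were found, on 16 of the 60776 transcript entries, and all 9 passed the filter on low values. The filter kept the 13260 genes that reached 1 FPKM (a fragment count scaled by transcript length and library size) or more in 3 or more of the 6 libraries.

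The study asked what happens to the heart when Mrps5, a protein of the small subunit of the mitochondrial ribosome, is lost from cardiomyocytes. Ctrl embryos carried Mrps5 fl/fl, and cKO embryos carried Mrps5 fl/fl together with cTNT-Cre, a recombinase driven by the promoter of cardiac troponin T. Each group gave 3 libraries at embryonic day 12, each made from pooled hearts. Both groups thus shared the floxed alleles, only cKO embryos carried Cre, and an effect of Cre itself and of the deletion cannot be told apart. The hearts also contained cells in which cTNT-Cre is not active.

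Complex III passes electrons from ubiquinol to cytochrome c and moves protons across the inner mitochondrial membrane by the Q cycle. Its catalytic centre is formed by cytochrome b, cytochrome c1 and the Rieske iron-sulfur protein. The other subunits surround and stabilise these. Cytochrome b alone is encoded in mitochondrial DNA (mt-Cytb) and made on mitochondrial ribosomes, whereas the nuclear subunits are made in the cytosol and imported. In the heart, which depends on oxidative phosphorylation, complex III also joins complexes I and IV in supercomplexes. The measurements below are of RNA and give no protein level.

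In cKO hearts the RNA of 4 small accessory subunits was lower than in Ctrl hearts: the cKO mean differed from the Ctrl mean by -28.0% for Uqcrh, -17.7% for Uqcrb, -16.7% for Uqcr10 and -15.3% for Uqcr11 (n = 3 per group). In these 4 of the 9 genes every cKO library lay below every Ctrl library, a pattern found in 13.0% of all genes tested, and in 0 of the 9 every cKO library lay above, against 7.74% of all genes. The mitochondrial partner mt-Cytb differed by -26.9%, also with no overlap. Uqcrq, the remaining accessory subunit, and the core and redox subunits overlapped between the groups. By limma on log2(FPKM + 1), the 4 accessory genes had unadjusted p-values under 0.05, which is the call rule used below. A call was made in the lower direction for 4 of the 9 genes, where 9.43% of all genes tested were called lower, and in the higher direction for 0 of the 9, where 5.57% of all genes were, or 15.0% in either direction. With Benjamini-Hochberg adjustment over all genes tested, limma placed 0 of the 9 under an adjusted p of 0.05, against 4 by the unadjusted rule. Over all genes 0.083% passed the adjusted rule. The lower calls are therefore described at the unadjusted rule throughout. The median log2 fold change was -0.18 over the 9 genes and -0.02 over all genes tested.

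Before the values, the RefSeq promoters (build GRCm38.p6) of Uqcrh, Uqcr11, Uqcr10 and Uqcrc1 are shown, because Uqcrc1 was not among the lower genes and the others were. RefSeq promoters were matched for 5 of the 9 genes, the fifth being Uqcrfs1, whose stretch is not shown. Each stretch has 120 bases and ends just before the outermost annotated transcription start. Capitals mark the core letters of an ETS family motif, CCGGAAG, or their reverse complement.

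Uqcrh promoter, chr4:116075072-116075191, minus strand: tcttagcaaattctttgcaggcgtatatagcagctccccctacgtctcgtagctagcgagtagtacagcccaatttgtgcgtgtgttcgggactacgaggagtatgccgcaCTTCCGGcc
Uqcr11 promoter, chr10:80406831-80406950, minus strand: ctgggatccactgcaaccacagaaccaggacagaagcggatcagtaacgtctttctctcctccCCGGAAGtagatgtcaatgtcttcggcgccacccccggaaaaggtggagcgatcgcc
Uqcr10 promoter, chr11:4704345-4704464, minus strand: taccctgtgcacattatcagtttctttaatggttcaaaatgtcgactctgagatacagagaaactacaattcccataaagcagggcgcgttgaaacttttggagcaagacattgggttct
Uqcrc1 promoter, chr9:108936513-108936632, plus strand: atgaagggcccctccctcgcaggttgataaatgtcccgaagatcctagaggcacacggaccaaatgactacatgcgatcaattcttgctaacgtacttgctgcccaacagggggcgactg

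Motifs were searched on both strands of the whole RefSeq promoter. The ETS core occurred in 2 of the 5 promoters, Uqcrh and Uqcr11, and in 8.86% of 32851 RefSeq promoters of the same length, which run from before to after the start. In Uqcrh it began 10 bases before the RefSeq start, on the opposite strand, and in Uqcr11 it began 66 bases before it. The core of the NRF-1 motif, GCATGCG, occurred in Uqcrc1 and Uqcr11 at places outside the stretches shown, and in 3.58% of all promoters. The letters AAGATGG of the YY1 motif and AAGGTCA of the ERR and other nuclear receptor motif were in 0 of the 5, and in 6.34% and 4.72% of all promoters. A match is a run of letters and not a measured binding site. In these 5 promoters the ETS core was present in 2 of the 3 genes called lower and in 0 of the 2 that were not, too few genes for a comparison.

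The libraries differed in ways that bear on all values below. Mrps5 itself had 9.65, 11.4 and 10.4 FPKM in Ctrl replicates 1, 2 and 3 and 5.28 and 7.41 FPKM in cKO replicates 1 and 2, while the library labelled cKO replicate 3 had 10.4 FPKM, a Ctrl level. Its log2 fold change was -0.44 (SE 0.19, limma adjusted p = 0.338, Benjamini-Hochberg). Erythroid markers made up 12.0% to 13.3% of the summed FPKM in Ctrl libraries and 23.5%, 10.8% and 22.0% in cKO replicates 1, 2 and 3. Cardiomyocyte markers were present, with 14 of 14 tested, and summed to 12168 to 14759 FPKM in Ctrl and 10660 to 12061 FPKM in cKO. Of these markers 8 were called lower (9.43% of all genes were) and 10 were lower without overlap (13.0% of all genes were), and the median log2 fold change was -0.33. The marker Nppa was called higher, with overlapping groups, and at 781 FPKM the library labelled cKO replicate 3 lay inside its Ctrl range of 620.5 to 793 FPKM. Endothelial, epicardial and mesenchymal markers had median log2 fold changes of -0.02, 0.08 and 0.06, macrophage markers 0.0042, and erythroid markers 0.66. Of the 13 erythroid markers 6 were called higher (5.57% of all genes were) and 0 were higher without overlap (7.74% of all genes were). In whole hearts, fewer cells of a type and less RNA per cell cannot be told apart. The part of these differences in the results below was not tested unless a value is given.

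The core proteins Uqcrc1 and Uqcrc2 form the large matrix-facing body of the complex and are relatives of the mitochondrial processing peptidase. Uqcrc1 had 60.8, 54.2 and 65.7 FPKM in Ctrl replicates 1, 2 and 3 and 61.9, 64.0 and 67.8 FPKM in cKO replicates 1, 2 and 3. The groups overlapped, with cKO replicate 3 above every Ctrl library. The log2 fold change of Uqcrc1 was 0.10 (95% interval -0.11 to 0.32, limma adjusted p = 0.649). Uqcrc2 had 132, 142 and 149 FPKM in Ctrl and 125, 137 and 138 FPKM in cKO. The values overlapped, and only cKO replicate 1 lay below all Ctrl libraries. This is a log2 fold change of -0.08 (95% interval -0.28 to 0.12, limma adjusted p = 0.723). The interval of Uqcrc2 also holds the estimates of Uqcrb, Uqcr10 and Uqcr11 given below.

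The redox subunits carry the heme and iron-sulfur centres that pass electrons onward. Cyc1, cytochrome c1, hands electrons to cytochrome c. It had 117, 107 and 133 FPKM in Ctrl and 114, 115 and 126 FPKM in cKO. All cKO values lay inside the Ctrl range, and the log2 fold change was -0.00031 (95% interval -0.23 to 0.23, limma adjusted p = 1.00). Uqcrfs1, the Rieske protein, had 103, 107 and 125 FPKM in Ctrl and 92.8, 93.1 and 110.0 FPKM in cKO. Replicates 1 and 2 of cKO lay below all Ctrl libraries and replicate 3 did not. For Uqcrfs1 the log2 fold change was -0.18 (limma adjusted p = 0.487), with a 95% interval of -0.42 to 0.07 that also holds the estimates of Uqcrb, Uqcr10 and Uqcr11 given below.

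**Figure D1:**
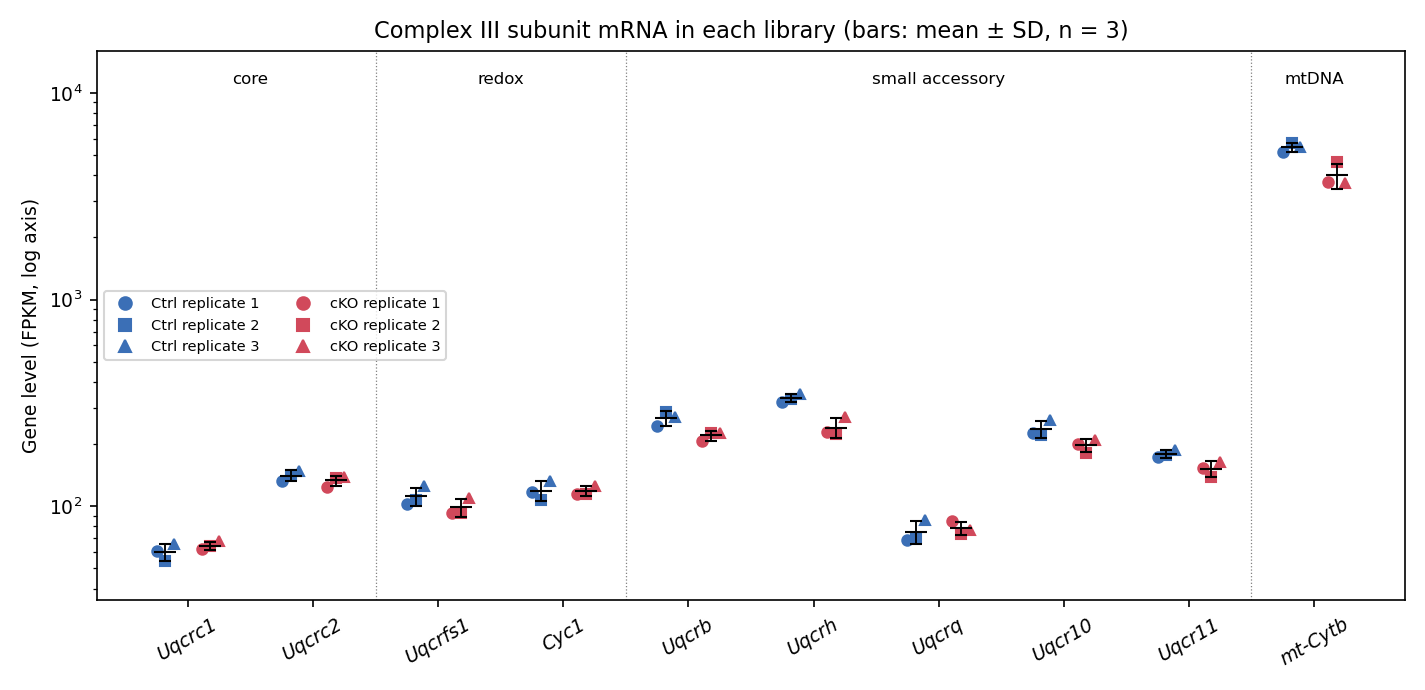
Gene level in FPKM on a log axis for each complex III subunit in each of the 6 libraries, with the marker shape giving the replicate and the black bars the mean ± SD (n = 3 per group). The cKO points of Uqcrb, Uqcrh, Uqcr10, Uqcr11 and mt-Cytb lie below all Ctrl points of the same gene, and those of the other genes overlap them.

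Uqcrh, the hinge protein that helps cytochrome c meet cytochrome c1, showed the largest difference of the 9 genes. It had 320.1, 332 and 349 FPKM in Ctrl replicates 1, 2 and 3, and 228, 223 and 270.2 FPKM in cKO replicates 1, 2 and 3. The highest cKO value, in the library labelled cKO replicate 3, was still below the lowest Ctrl value. The means were 334 ± 14.8 FPKM (SD, n = 3) in Ctrl and 240.3 ± 26.0 FPKM (SD, n = 3) in cKO, and the log2 fold change was -0.48 (SE 0.10, limma unadjusted p = 0.00175, adjusted p = 0.139). The annotation (GENCODE M21) names 2 processed pseudogenes, Uqcrh-ps1 and Uqcrh-ps2, neither of which is among the entries used, so how reads shared with them were assigned is uncertain.

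Uqcrb, which binds next to cytochrome b early in assembly, had 244, 286 and 272 FPKM in Ctrl and 206, 227 and 227 FPKM in cKO. Every cKO value was lower than every Ctrl value. Its log2 fold change was -0.28 (SE 0.10, limma unadjusted p = 0.0212, adjusted p = 0.254). Uqcrb lies opposite Gm10767 on chromosome 13 and Uqcrc2 opposite Pdzd9 on chromosome 7. The libraries kept the strand, but whether the quantification used it is not given in the sources used here.

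Uqcr10, a small membrane-spanning subunit close to cytochrome c1 and the Rieske protein, had 226, 222 and 261 FPKM in Ctrl and 199.7, 182 and 209.5 FPKM in cKO. The lowest Ctrl value was above the highest cKO value. Its log2 fold change was -0.26 (SE 0.10, limma unadjusted p = 0.0344, adjusted p = 0.297). Uqcr11, another small membrane-spanning subunit of the same edge of the complex, had 173, 177 and 188 FPKM in Ctrl and 154, 138 and 164 FPKM in cKO, again without overlap. Its log2 fold change was -0.24 (SE 0.09, limma unadjusted p = 0.0326, adjusted p = 0.292).

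Uqcrq, which also binds next to cytochrome b, did not share the lower values of the other accessory genes when its transcript entries were summed. It had 68.8, 70.6 and 85.9 FPKM in Ctrl and 84.5, 73.8 and 77.0 FPKM in cKO, with all cKO values inside the Ctrl range. The log2 fold change was 0.07 (95% interval -0.18 to 0.31, limma adjusted p = 0.813).

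The mitochondrially encoded mt-Cytb, the only subunit of the complex that needs the mitochondrial ribosome, had 5199, 5749 and 5452 FPKM in Ctrl and 3707, 4635 and 3647 FPKM in cKO. The groups did not overlap, and cKO replicate 2 was the nearest to Ctrl. Its log2 fold change was -0.46 (SE 0.17, limma unadjusted p = 0.0282, adjusted p = 0.279). The call held in 10 of 17 other settings and was lost in 7. With the erythroid share as a covariate the value was -0.29 (limma adjusted p = 0.622), and after quantile normalization it was -0.010 (limma adjusted p = 0.979), in a range of adjusted p from 0.168 to 0.979 over all settings.

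**Figure D2:**
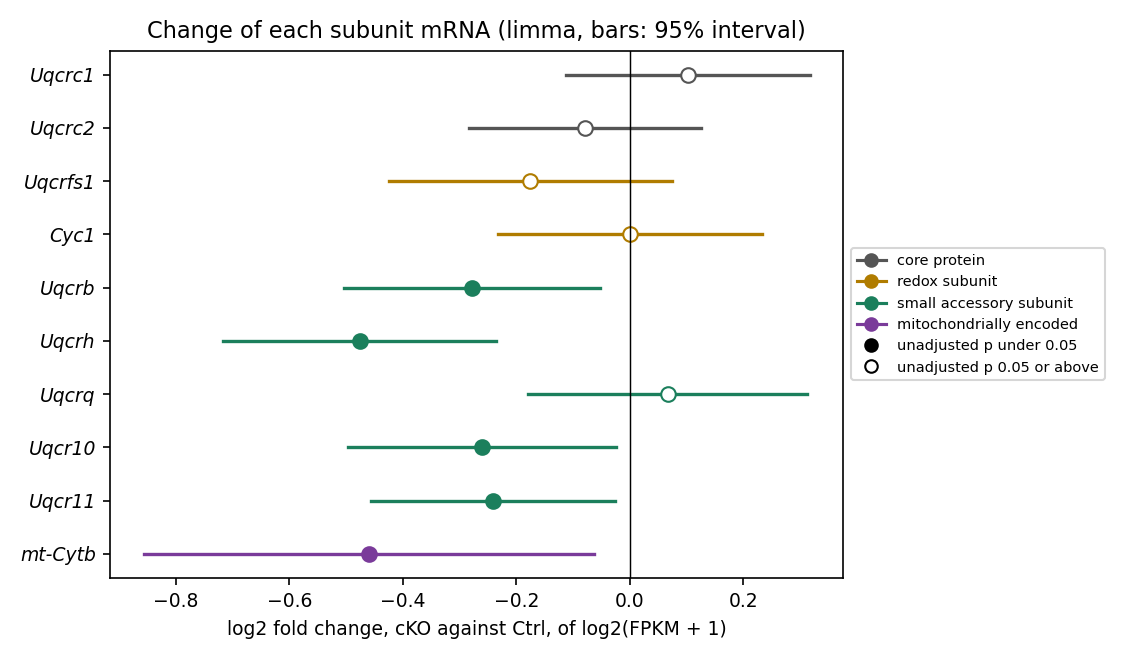
Log2 fold change of cKO against Ctrl (horizontal axis, on the log2(FPKM + 1) scale) for each subunit with its 95% interval from limma, coloured by role and filled where the unadjusted p was under 0.05. Uqcrh has the lowest estimate at -0.48, next to mt-Cytb at -0.46, and the intervals of Uqcrb, Uqcr10 and Uqcr11 end just below 0.

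FPKM is scaled by transcript length, so the levels of different subunits can be set side by side, within the limits of each length estimate. The order of the mean levels in Ctrl ran from Uqcrh, Uqcrb, Uqcr10 and Uqcr11 through Uqcrc2, Cyc1 and Uqcrfs1 to Uqcrq and Uqcrc1, and the order in cKO was the same. In Ctrl the neighbours Uqcrb and Uqcr10, Uqcrc2 and Cyc1, and Cyc1 and Uqcrfs1 overlapped in their values, and all other neighbours were apart. In cKO Uqcrh and Uqcrb overlapped as well, while Cyc1 and Uqcrfs1 no longer did. The genes that were called lower are the 4 with the highest level. Of the summed FPKM of the nuclear subunits, Uqcrh made up 21.9% in Ctrl and 18.4% in cKO, and Uqcrc1 made up 3.95% and 4.96%.

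Ratios within a library do not depend on how the library was scaled. The sum of the 5 accessory genes over that of the 4 core and redox genes was 2.503, 2.65 and 2.45 in Ctrl replicates 1, 2 and 3 and 2.21, 2.06 and 2.15 in cKO replicates 1, 2 and 3. Every cKO ratio was below every Ctrl ratio, with means of 2.53 ± 0.104 (SD, n = 3) and 2.14 ± 0.0775 (SD, n = 3). Uqcrh over Uqcrc1 was 5.27, 6.12 and 5.32 in Ctrl and 3.68, 3.48 and 3.99 in cKO, a wider gap. The ratio of mt-Cytb to the summed nuclear subunits was 3.599, 3.84 and 3.35 in Ctrl and 2.93, 3.70 and 2.63 in cKO, and these overlapped. These ratios were formed with the fold changes known, so they describe the same difference and no test was run on them.

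**Figure D3:**
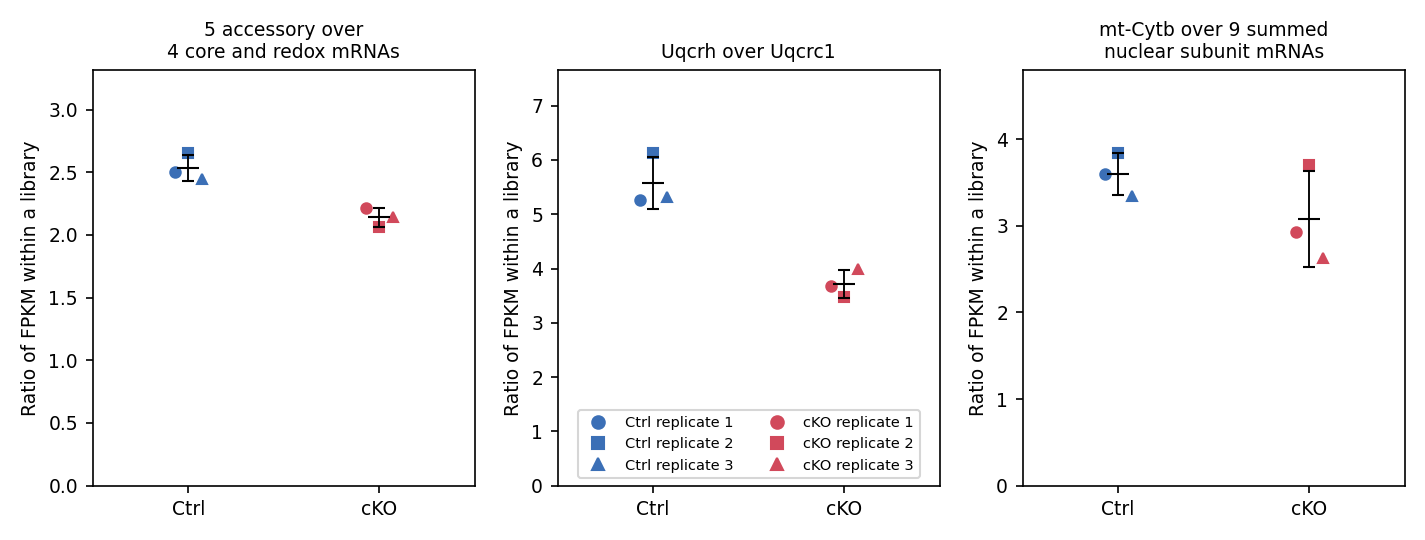
Ratio of FPKM within each library (vertical axes, starting at 0) for accessory over core and redox genes, for Uqcrh over Uqcrc1, and for mt-Cytb over the 9 summed nuclear genes, with black bars for the mean ± SD (n = 3). The first and second ratios are lower in every cKO library than in any Ctrl library, and the mt-Cytb ratio of cKO replicate 2, at 3.70, lies among the Ctrl values.

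Across the cKO libraries the lower genes did not share one order. Uqcrh, Uqcr10 and Uqcr11 were lowest in cKO replicate 2, where the erythroid share was 10.8% and Mrps5 7.41 FPKM. Uqcrb was lowest in cKO replicate 1, where the erythroid share was highest (23.5%) and Mrps5 lowest (5.28 FPKM). The library labelled cKO replicate 3, with Mrps5 at the Ctrl level and an erythroid share of 22.0%, had the highest Uqcrh, Uqcr10 and Uqcr11 among the cKO libraries, a Uqcrb level within 1 FPKM of that of cKO replicate 2, and the lowest mt-Cytb of all libraries, with cKO replicate 1 next. All 5 genes were below every Ctrl library there. The part of erythroid content and of the Mrps5 level in these differences was not tested. The summed FPKM of the nuclear subunits was 1444, 1498 and 1628 in Ctrl and 1266, 1253 and 1389 in cKO, a difference of -14.5% between the means. For the summed cardiomyocyte markers, Nppa included, it was -14.4%, and for the core and redox genes alone -3.82%. The median log2 fold change of these markers, -0.33, was further below 0 than that of the 9 subunit genes, -0.18. The part of cardiomyocyte content in the subunit values was not tested.

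Which calls depended on 1 library was looked at by leaving each out in turn. Uqcrh kept an unadjusted p under 0.05 in 6 of 6 such fits, with log2 fold changes from -0.56 to -0.42. Without the library labelled cKO replicate 3 its adjusted p was 0.0382 (limma, Benjamini-Hochberg), in a range of 0.0382 to 0.396 over all settings tried. In that same fit 270 of all genes passed the adjusted rule, against 11 with all 6 libraries. Uqcrb lost its call without Ctrl replicate 2 (log2 fold change -0.23), Ctrl replicate 3 (-0.27) or cKO replicate 1 (-0.23). Uqcr10 lost it without Ctrl replicate 3 (log2 fold change -0.19), cKO replicate 1 (-0.27) or cKO replicate 2 (-0.20). Uqcr11 lost it without Ctrl replicate 2 (log2 fold change -0.25), Ctrl replicate 3 (-0.21), cKO replicate 1 (-0.25) or cKO replicate 2 (-0.18). The median over the 9 genes was -0.09 without Ctrl replicate 3 and between -0.26 and -0.13 without each of the others. The count of genes called lower was 1 without Ctrl replicate 3 or without cKO replicate 1, and 2 without Ctrl replicate 2 or without cKO replicate 2. For mt-Cytb the call held without Ctrl replicate 1 or cKO replicate 2. It was lost without Ctrl replicate 2 (log2 fold change -0.42), Ctrl replicate 3 (-0.46), cKO replicate 1 (-0.41) and cKO replicate 3 (-0.40). All 4 accessory genes and mt-Cytb stayed below 0 in every such fit. With each library centred on its median gene, Uqcrb and Uqcrh kept their calls and Uqcr10 (log2 fold change -0.25) and Uqcr11 (-0.23) did not. With the erythroid share as a covariate Uqcrb (-0.24) lost its call, and Uqcrh, Uqcr10 and Uqcr11 kept theirs.

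**Figure D4:**
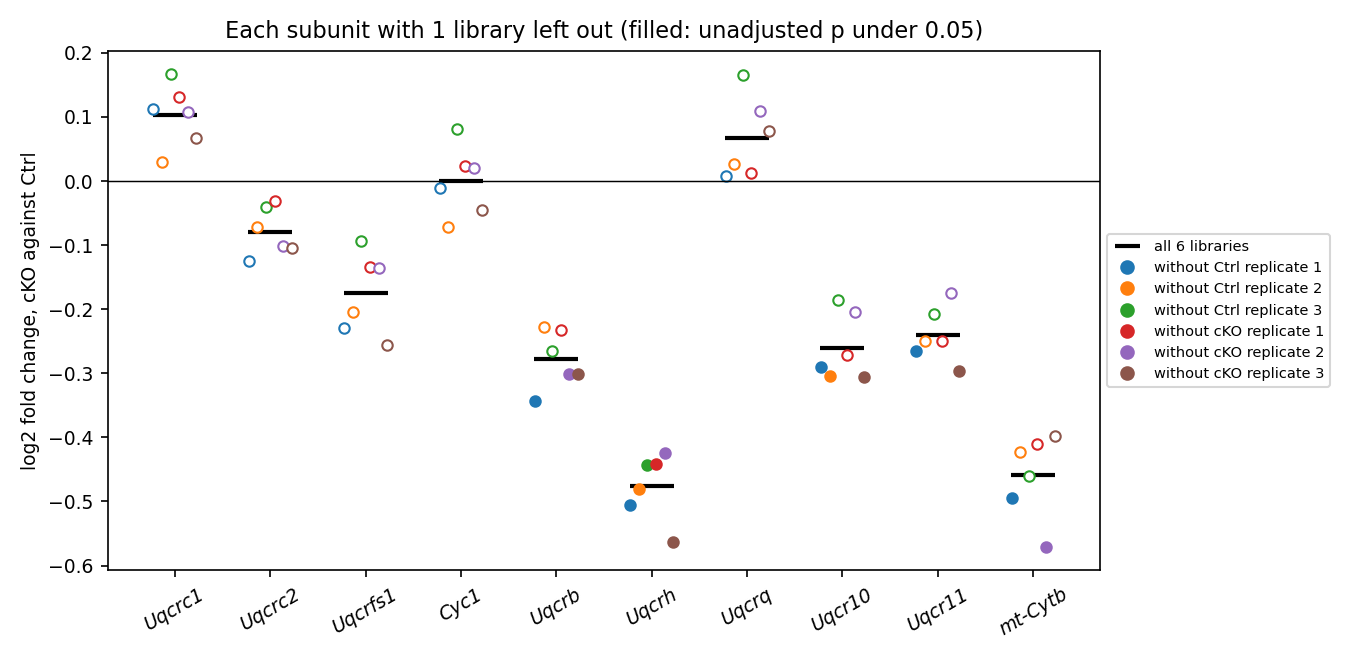
Log2 fold change of cKO against Ctrl (vertical axis) for each subunit with all 6 libraries (black bar) and with each library left out (points, filled where the unadjusted p was under 0.05). Only Uqcrh has 6 filled points, and the points of Cyc1 lie on both sides of 0.

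Among the genes with several transcript entries, the longer entry of Uqcrh (Uqcrh-202, 547 nt) carried 99.4% of the gene and the shorter (Uqcrh-201, 402 nt) the rest. Both were lower without overlap, Uqcrh-201 from 2.16 ± 0.0866 to 1.26 ± 0.112 FPKM (SD, n = 3). Uqcrq is carried by a 1521 nt entry (Uqcrq-201, 52.6 ± 6.995 FPKM in Ctrl and 58.5 ± 4.01 in cKO) and a 405 nt entry (Uqcrq-203, 21.7 ± 2.66 and 19.1 ± 2.64 FPKM, SD, n = 3), and both overlapped between the groups. Their means went in opposite directions, with the cKO mean higher for the longer entry and lower for the shorter. The summed value of Uqcrq thus follows mainly the longer entry. The minor entries Uqcrc1-206 and Uqcrc2-206 were listed at 0 in every library.

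By their most abundant transcript, the 4 accessory genes called lower are the shortest of the 9, from 434 to 547 nt, and the other 5 run from 1363 to 1896 nt. Minor entries can be shorter, as Uqcrq-203 is. This property was looked at after the values were seen. Of all genes tested with a main transcript under 600 nt, 17.0% were called lower and 4.58% higher (371 genes, median log2 fold change -0.07). The lower quartile of these short genes was -0.28 on the log2 scale. Uqcr10, Uqcr11 and Uqcrb lay between that quartile and the median, and Uqcrh lay below the quartile. The share called lower was 14.9% from 600 to 1000 nt, 8.71% from 1000 to 2000 nt, 7.79% from 2000 to 4000 nt and 9.17% from 4000 nt up. It was thus highest among short genes and did not go on falling with length. The share called higher was 4.85%, 7.61%, 6.25% and 3.83% in the same classes. The part of transcript length in the difference between the subunits was not tested.

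**Figure D5:**
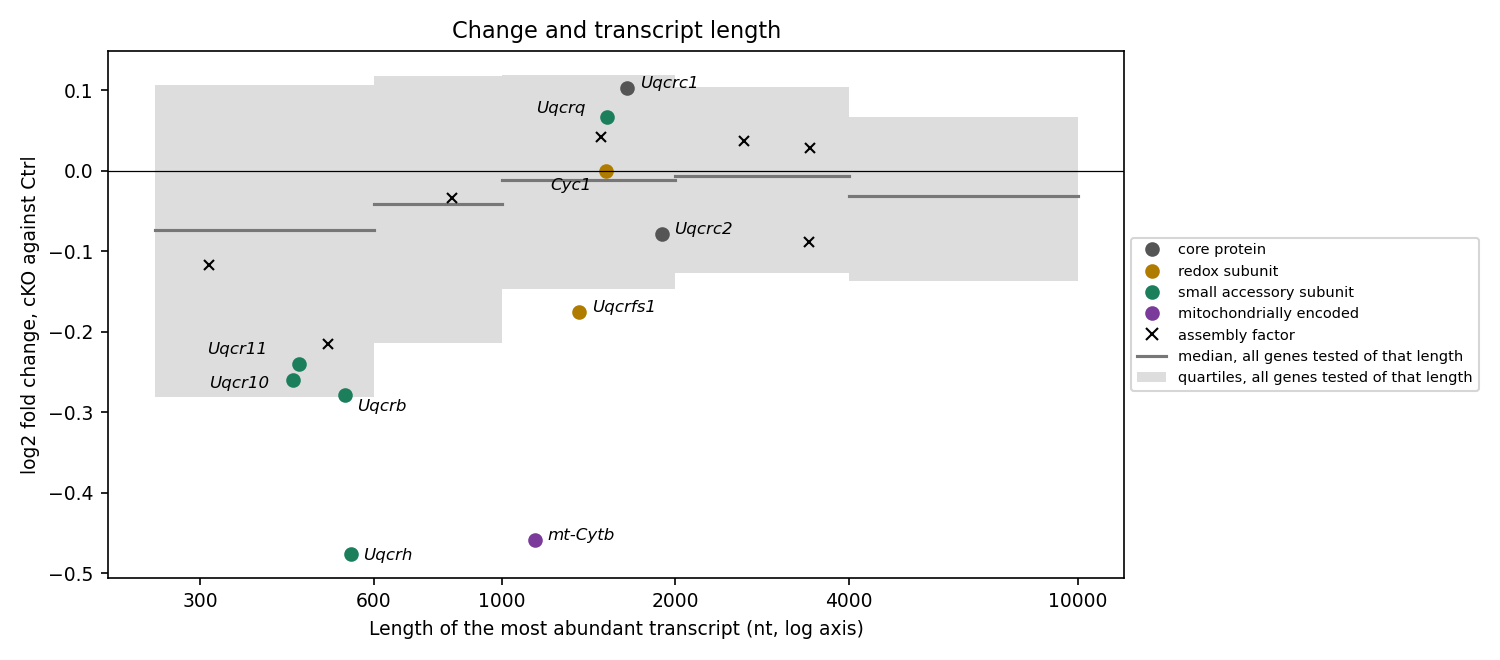
Log2 fold change of cKO against Ctrl (vertical axis) against the length of the most abundant transcript in nt (horizontal log axis), for the subunits by role and for the assembly factors (crosses), with the median and quartiles of all genes tested in 5 length classes. The 4 accessory genes called lower sit at 434 to 547 nt, below the median of their length class, and Uqcrq sits at 1521 nt beside the core and redox genes.

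The genes that build complex III or work beside it were taken from lists of the pathway. Of 7 assembly factors, 1 was called lower and 0 higher, with a median log2 fold change of -0.03, where 9.43% of all genes were called lower and 5.57% higher. The called gene was Uqcc2, needed for newly made cytochrome b, with 68.6, 70.3 and 75.4 FPKM in Ctrl and 60.3, 62.0 and 61.8 FPKM in cKO (log2 fold change -0.21, SE 0.08, limma unadjusted p = 0.0228, adjusted p = 0.263), and its transcript is short as well (500 nt). The call of Uqcc2 was lost with the erythroid covariate (-0.20) and without Ctrl replicate 2 (-0.23), Ctrl replicate 3 (-0.18) or cKO replicate 1 (-0.20). The cytochrome c list held Cycs, the somatic electron carrier that complex III reduces, and Hccs, the enzyme that attaches its heme. Hccs was not called. Cycs was called lower and had 92.0, 117 and 96.7 FPKM in Ctrl and 69.3, 82.4 and 84.7 FPKM in cKO, without overlap (log2 fold change -0.36, SE 0.12, limma unadjusted p = 0.0155, adjusted p = 0.230). The main transcript of Cycs has 3123 nt. Its call was lost with the erythroid covariate (-0.31) and without Ctrl replicate 2 (-0.26) or cKO replicate 1 (-0.28).

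Of 13 genes of coenzyme Q synthesis, which makes the electron donor of the complex, 2 were called lower and 0 higher (median -0.03). Over all genes 9.43% were called lower and 5.57% higher. Coq8a, 1 of the 2, passed the filter on low values only through Ctrl, so the count is not read against that share. Coq7, the hydroxylase of a late step, had 28.0, 27.9 and 27.6 FPKM in Ctrl and 19.6, 24.6 and 25.3 FPKM in cKO (log2 fold change -0.26, SE 0.11, limma unadjusted p = 0.0367, adjusted p = 0.302). The call was lost in 6 of 17 other settings: without Ctrl replicate 1 (-0.26), Ctrl replicate 2 (-0.26), Ctrl replicate 3 (-0.27) or cKO replicate 1 (-0.15), with the most abundant transcript alone (-0.24) and with the erythroid covariate (-0.18). Coq8a, an atypical kinase-like protein of the synthesis complex, was low throughout, with 1.40, 1.11 and 1.07 FPKM in Ctrl and 0.461, 0.459 and 0.677 FPKM in cKO. It reached 1 FPKM in the Ctrl libraries only and so passed the filter through the group where it is higher, and its call is no support for a difference. Its log2 fold change of -0.52 depended on the 1 added to FPKM, and was -1.04 with 0.1 added. The 4 tested dehydrogenases that feed ubiquinone gave 0 calls in either direction. The smallest p among them was that of Gpd2, the mitochondrial glycerol phosphate dehydrogenase, which was higher without overlap at 6.93, 8.29 and 7.72 FPKM in cKO against 6.31, 6.48 and 6.60 in Ctrl (log2 fold change 0.21, limma adjusted p = 0.344). In 5 of 17 other settings Gpd2 was called higher (0.22 to 0.30), and by its most abundant transcript alone the direction turned, to -0.054. Of 3 peptidases that cut presequences, 0 were called, and the smallest p was that of Mipep (0.132).

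In the other respiratory chain complexes, limma called 7 of 36 nuclear genes lower in complex I, 1 of 4 in complex II, 4 of 14 in complex IV and 5 of 16 in complex V, against 4 of 9 in complex III and 9.43% of all genes. The lower genes were Ndufa3, Ndufa5, Ndufb3, Ndufb5, Ndufb6, Ndufb8 and Ndufc1 in complex I, Sdhd in complex II, Cox6b1, Cox7a1, Cox7b and Cox8b in complex IV, and Atp5g3, Atp5j, Atp5j2, Atp5k and Atp5o in complex V. In complex IV 1 of 14 genes was called higher, where 5.57% of all genes were. It was Cox6a2, a heart and muscle isoform whose groups overlapped. At 82.0 FPKM the library labelled cKO replicate 3 lay inside its Ctrl range of 74.6 to 91.2 FPKM. These genes were named after their values were seen. The medians were -0.08, -0.10, -0.11 and -0.13, and -0.18 for complex III. The lists were not tested against each other, and 0 genes of any of them passed the adjusted rule, against 22 called by the unadjusted rule in the related lists as a whole. The 22 include Coq8a, which passed the filter only through Ctrl.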

How the data were processed

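Per the labels, ribosomal RNA was depleted and strand-specific libraries were made by the authors from 3 Ctrl and 3 cKO samples of embryonic hearts. The deposited table holds FPKM per transcript. Submitters' processing notes name mm9, Bowtie2 2.2.8, HISAT2, StringTie 1.3.1 and Cuffdiff 2.1.1 without their roles. Which of them gave FPKM is not given in the sources used here, since the study's sequencing methods describe adult hearts and another library type. Read numbers are unknown. Relative depth, read from low values, was 1.00 to 1.40 in Ctrl and 1.18 to 1.62 in cKO.

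Transcript FPKM were summed per gene, and log2(FPKM + 1) was compared between groups with limma 3.58.1 (trend) in R 4.3.3 over genes with at least 1 FPKM in 3 or more libraries. P-values were adjusted by Benjamini-Hochberg over all 13260 genes. The study's text calls the replicates biological and gives each as a pool of hearts. P-values measure only the spread between these samples. The members, lists and alternatives were chosen with earlier results of these data known. Named were all 9 genes, mt-Cytb, Mrps5, and from the lists of assembly factors, cytochrome c, coenzyme Q synthesis, dehydrogenases and peptidases the genes with an unadjusted p under 0.05 or else the one with the smallest p. Complexes I, II, IV and V were to be given by counts and medians. Transcript lengths came from GENCODE M21, which held 57382 of 57676 Ensembl transcripts. Lengths were found for 97.3% of genes tested. 27 symbols turned into dates were restored.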

Additional observations from a re-analysis of the deposited data

How the results depend on the processing

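Of 9 genes, 4 were called lower, 2 with libraries centred on the median gene, and 1 to 4 with 1 library left out. At the adjusted rule 0 passed, 0 to 1 with 1 library left out. The median, -0.18, ran from -0.26 (without cKO replicate 3) to -0.09 (without Ctrl replicate 3). Erythroid share as covariate: Uqcrb lost its call (-0.24). The replicate block gave 5 calls (Uqcrfs1 added, adjusted p = 0.274 by limma) and 4 genes at the adjusted rule over all genes. Same-numbered libraries deviated together at r = 0.217, 0.110 and 0.0901, and every cKO library matched its own number best, a hint of pairing. Numbers were not taken as pairs because 1 correlation was under 0.1 and no label ties a number to a litter or batch. mt-Cytb was -0.46 unfiltered (call lost), -0.010 quantile normalized, -0.29 with the erythroid covariate, and -0.57 to -0.40 with 1 library left out. Cyc1 changed sign to 0.025 (rescaled without erythroid markers), 0.010 (centred), and to 0.082, 0.024 and 0.020 without Ctrl replicate 3, cKO replicate 1 and cKO replicate 2 (-0.072 to 0.082 leave-one-out). Gpd2 was -0.054 by its most abundant transcript and gained a call as higher in 5 settings (0.22 centred to 0.30 with the erythroid covariate). Genes at the adjusted rule, 11 in all, were 6 unfiltered, 4 by the most abundant transcript, 0 with the erythroid covariate (1308 unadjusted), 6 without trend and 5 to 270 leave-one-out (270 without cKO replicate 3). The 1990 unadjusted calls were 1314 at mean FPKM of at least 5, 1308 with the erythroid covariate and 1216 to 2167 leave-one-out. The 22 calls in related lists, 1 of them higher, were 14 with that covariate, 32 after quantile normalization and 9 to 25 leave-one-out. The 22 include Coq8a, which passed the filter only through Ctrl. Causes were not tested. Unknown depth limits precision.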
